A study of Sus scrofa with 2 samples.

Results

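JUN, FOS, FOSB, JUNB, EGR1, ATF3, NR4A1 and IER2, 8 immediate early genes, were followed through the nephron segments and the other cell classes of pig kidney cortex. They were chosen by name from the 31908 genes of the deposited tables. The files carried a symbol for 6 of them, and JUN (ENSSSCG00000031912) and IER2 (ENSSSCG00000013753) were matched by identifier through a table that pairs identifiers with symbols. Single-nucleus RNA sequencing was done on 2 libraries of renal cortex, 1 unperfused and 1 perfused. The kidneys came from a slaughterhouse, were flushed with heparinized saline and were kept at 4 °C for about 2 h. The unperfused cortex was taken before perfusion, and the perfused cortex was taken once ex vivo perfusion had run for 120 min with Gey's balanced salt solution, which held neither albumin nor red cells, at 100 mmHg and 37 °C. In both libraries the tissue was snap-frozen and the nuclei were isolated from the frozen piece. The pig protocol refers to the mouse protocol, in which the fluid was gassed with carbogen, an oxygen-rich gas. Pressure, warming, fluid, oxygen supply and time after slaughter changed together between the libraries and cannot be told apart. The labels do not say whether both pieces came from 1 animal. With 1 library per condition no difference below has a replicate check, so no p-value is given, and every interval is a 95% interval of counting error only.

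Immediate early genes are transcribed within minutes of a stimulus without the need for new protein synthesis, and their mRNAs decay quickly. JUN, JUNB, FOS and FOSB encode the subunits of the dimeric transcription factor AP-1, ATF3 is a related basic leucine zipper factor of the stress response, EGR1 is a zinc finger factor, NR4A1 is an orphan nuclear receptor and IER2 is a small nuclear protein. In kidney they are known to respond to ischemia, reperfusion, mechanical load and tissue handling, and nuclear RNA is rich in recent, still unspliced transcripts.

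After filtering, 6389 unperfused and 5421 perfused nuclei were kept, with a median of 3755 and 4383 UMIs (counted RNA molecules) per nucleus and totals of 26691180 and 27107290 UMIs. The libraries shared 14 barcodes, 8 of them among the kept nuclei. Clustering, done without these genes, gave 20 clusters, of which 17 were named as 13 classes by their markers: podocyte-like (PODO), proximal tubule-like (PT), loop of Henle-like (LOH), thin limb-like, distal convoluted tubule-like (DCT), connecting tubule-like (CNT), principal cell-like (PC), type A and type B intercalated cell-like (IC-A, IC-B), endothelial-like (EC), stromal-like (STROMA), immune-like (IMM) and cycling nuclei. The segment names rested on strong markers in most classes, for example SLC12A1, the sodium-potassium-chloride cotransporter of the thick limb, at 8614 CPM in LOH (CPM being the UMIs of a gene scaled to the same total of UMIs in every class) against 115 in all other nuclei, and AQP2, the vasopressin-regulated water channel, at 990 CPM in PC against 19.3. The thin limb name rested on weak markers, with SLC14A2 at 30.1 CPM and CLDN4 at 40.1 CPM. In DCT the defining marker SLC12A3 reached 844 CPM against 19.7 elsewhere, while FGF13 and TRPM6 were lower there than in other nuclei. The 3 clusters that could not be named held 325 unperfused and 353 perfused nuclei, and they are called by number below: cluster 11 (led by POU2F3, SLC5A8 and NRG3), cluster 13 (led by DPP10, SLIT3 and CDH18) and cluster 14 (led by AGMO, RIMS2 and MEGF6).

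The genes were unevenly spread along the nephron in both libraries. JUN, a subunit common to most AP-1 dimers, was at 441 CPM in PC (326 UMIs) and 228 CPM in CNT (510 UMIs) of the unperfused library, against 26.8 CPM in PT, 22.0 CPM in LOH and 16.3 CPM in DCT. In the perfused library the same classes stood at 820, 288, 23.1, 19.97 and 13.9 CPM. PC and CNT thus held more JUN than PT, LOH and DCT in both libraries. The intercalated cells did not share the high levels of their neighbours, with 37.4 and 36.8 CPM in IC-A and 84.6 and 37.3 CPM in IC-B. Thin limb, at 205 CPM, overlapped CNT in the unperfused library and lay above it after perfusion, at 442 CPM (366 to 529 CPM) against an interval of 260 to 317 CPM in CNT. Cluster 13 stood first in both libraries, with 520 CPM unperfused and 1050 CPM perfused. In the unperfused library the intervals of cluster 13 (448 to 600 CPM) and PC (395 to 492 CPM) overlapped, whereas in the perfused library they did not (927 to 1185 CPM and 759 to 885 CPM). At the low end, the intervals of IC-A, PT, LOH and DCT each overlapped the next in order in both libraries.

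**Figure D1:**
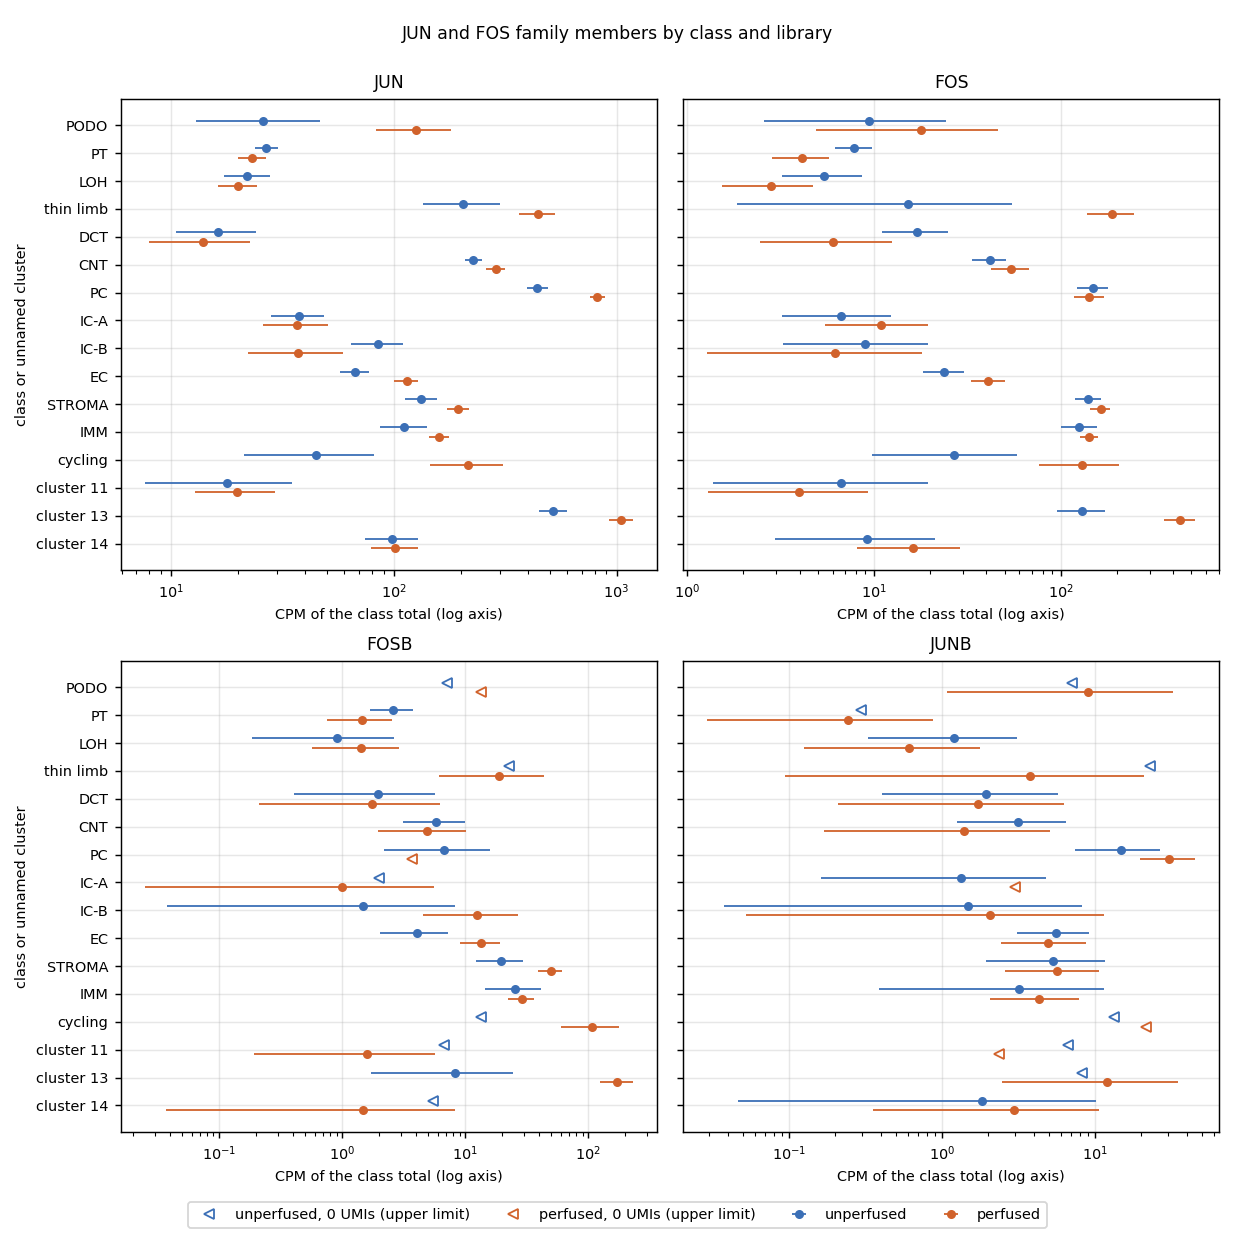
Levels of JUN, FOS, FOSB and JUNB in CPM of the class total (log axis, its range differing between panels) for each class and unnamed cluster, with unperfused in blue and perfused in orange. Points are the summed UMIs of 1 library, lines are 95% counting intervals, and open triangles are the upper limits that 0 UMIs allow; JUN in PC sits at 441 and 820 CPM, and in PT at 26.8 and 23.1 CPM.

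Between the libraries, JUN was higher after perfusion in 8 of the 13 classes, each time with an interval above 0, and lower in 5 classes, 1 of them with an interval below 0. As a log2 ratio, perfused over unperfused, the difference was 0.89 (0.70 to 1.09) in PC, and in CNT it was 0.34 (0.14 to 0.53). In PT it was -0.21 (-0.49 to 0.06), in LOH -0.14 (-0.59 to 0.31) and in DCT -0.23 (-1.24 to 0.73), each within counting error. EC went from 66.7 to 114 CPM (log2 ratio 0.77), STROMA from 133 to 194 CPM (0.55) and IMM from 112 to 160 CPM (0.52).

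A pair of gene and class was called when the level differed at least 2-fold with an interval that did not include 0 and at least 20 UMIs in both libraries together. JUN was called higher in PODO, from 26.0 to 125 CPM (log2 ratio 2.27), where 1.99% of the tested genes were called higher. Of the 28 perfused JUN UMIs in PODO, 13 came from 1 of 30 nuclei, and without the richest nucleus of each library the ratio was 1.71. In thin limb JUN went from 205 to 442 CPM (log2 ratio 1.11), with 3.62% of tested genes called higher in that class. That ratio fell short of 2-fold in the nuclei without a marker of another lineage (0.82) and at an equal depth of 1000 UMIs (0.77). Among cycling nuclei, only 39 and 21 in the libraries, it went from 44.5 to 216 CPM (2.28). Of its 30 perfused UMIs there, 10 lay in 1 nucleus, and 8.36% of tested genes were called higher in that class. Cycling nuclei were named by cell cycle genes such as TOP2A and CENPF, which do not give a lineage. Their ribosomal share of UMIs was 0.465% unperfused and 0.972% perfused. The mix of lineages in that class may differ between the libraries, and its part in the differences was not tested. IC-B, the bicarbonate-secreting intercalated cell, went the other way, from 84.6 CPM (57 UMIs in 112 nuclei) to 37.3 CPM (18 UMIs in 60 nuclei), a log2 ratio of -1.18 (-2.03 to -0.40) beside 4.33% of tested genes called lower. The IC-B value was -0.68 with doublets kept, -1.89 without the richest nucleus and -2.14 in the nuclei without a marker of another lineage.

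FOS, the main dimer partner of JUN, had another order of classes. In the unperfused library PC (149 CPM), STROMA (140 CPM), cluster 13 (130 CPM) and IMM (126 CPM) overlapped in their intervals and stood apart from CNT (41.6 CPM), while PT (7.82 CPM) and LOH (5.43 CPM) were lowest among the named tubule classes with IC-A (6.68 CPM). After perfusion FOS in PC was at 142 CPM, a log2 ratio of -0.07 (-0.46 to 0.32). In PC the ratios of JUN (0.89) and FOS (-0.07) thus had intervals that did not overlap. PT went from 7.82 to 4.12 CPM (log2 ratio -0.93, -1.55 to -0.33) and EC from 23.7 to 41.0 CPM (0.79, 0.31 to 1.27).

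FOS was called in 3 classes. In thin limb it went from 15.2 CPM (2 UMIs) to 187 CPM (50 UMIs), a log2 ratio of 3.62 (1.69 to 6.71). Of these 50 UMIs, 14 lay in 1 nucleus and 14 of 88 nuclei held any; without the richest nucleus the ratio was 2.57, and in the 11 and 17 nuclei without a marker of another lineage it was 1.31. Cycling nuclei went from 26.7 to 130 CPM (log2 ratio 2.28), with 8 of the 18 perfused UMIs in 1 nucleus. DCT went from 17.0 to 6.07 CPM, with 26 and 7 UMIs and a log2 ratio of -1.48 (-2.93 to -0.24), in a class where 4.4% of tested genes were called lower; 10 of the 26 unperfused UMIs lay in 1 nucleus. In IMM, 29 of the 79 unperfused FOS UMIs lay in 1 nucleus, and the level was 126 CPM before and 142 CPM after perfusion.

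FOSB, which forms AP-1 dimers with JUN proteins as FOS does, was sparse in the tubule and was called in 2 classes outside it. EC went from 4.08 CPM (11 UMIs) to 13.4 CPM (30 UMIs), a log2 ratio of 1.71 (0.68 to 2.86) beside 1.36% of tested genes called higher. STROMA went from 19.5 CPM (22 UMIs) to 49.4 CPM (79 UMIs), a log2 ratio of 1.34 (0.65 to 2.10) beside 4.17% of tested genes called higher. The stromal difference lay in 1 of the 2 stromal clusters: cluster 12 went from 11.2 to 137 CPM (3 and 62 UMIs), and cluster 6 was at 22.1 and 14.8 CPM (19 and 17 UMIs). The stromal ratio moved with how nuclei were clustered, to 0.58 at a resolution of 1 and to 0.20 in the nuclei without a marker of another lineage. The mitochondrial share of stromal UMIs was 0.184% unperfused and 0.740% perfused, and its part in the stromal differences was not tested. PC held 5 FOSB UMIs unperfused and 0 perfused, which allows up to 3.67 CPM, so FOSB was near its detection limit in the class with high JUN. In cycling nuclei FOSB went from 0 UMIs, which allow up to 13.4 CPM, to 15 UMIs at 108 CPM, below the number of UMIs set for a call. Of these 15 UMIs, 10 lay in 1 nucleus.

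JUNB, an AP-1 subunit that also restrains JUN, had 125 UMIs among the kept nuclei and reached 20 UMIs in 2 classes only. In PC it was at 14.9 CPM (11 UMIs) and 30.6 CPM (25 UMIs), a log2 ratio of 1.04 whose interval, -0.04 to 2.21, included 0. EC was at 5.56 and 4.90 CPM (-0.18, -1.45 to 1.04). No class was called for JUNB.

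ATF3, a stress-induced factor that binds CREB and AP-1 type sites, was highest in PC among the named classes in both libraries. In the unperfused library PC stood at 720 CPM (532 UMIs), cluster 13 at 287 CPM and CNT at 199 CPM, with no overlap of intervals between neighbours, and STROMA followed at 75.3 CPM. IC-B (49.0 CPM) and IC-A (38.1 CPM) overlapped each other, and PT was at 15.4 CPM, LOH at 12.1 CPM, DCT at 7.82 CPM and PODO at 2.36 CPM (1 UMI). After perfusion cluster 13 (991 CPM) and PC (932 CPM) overlapped at the top. Cycling nuclei (281 CPM), CNT (226 CPM) and thin limb (217 CPM) followed, with intervals that overlapped.

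The ATF3 ratio in PC was 0.37 (0.21 to 0.53) and in CNT 0.18 (-0.03 to 0.39), both small beside the spread of levels between classes. PT and LOH went from 15.4 to 11.7 CPM (-0.40, -0.78 to -0.02) and from 12.1 to 7.06 CPM (-0.77, -1.47 to -0.08), and IMM from 35.1 to 66.0 CPM (0.91, 0.26 to 1.63). ATF3 was called higher in thin limb, from 4 to 58 UMIs and 30.4 to 217 CPM (2.84, 1.40 to 4.76). It was also called higher in cycling nuclei, from 35.6 to 281 CPM (2.98, 1.86 to 4.29). In these classes 3.62% and 8.36% of tested genes were called higher. Over the 10 settings of the processing that formed it, the thin limb ratio ran from 1.54 to 3.66. In the cycling nuclei 22 of the 39 perfused UMIs came from 1 nucleus.

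**Figure D2:**
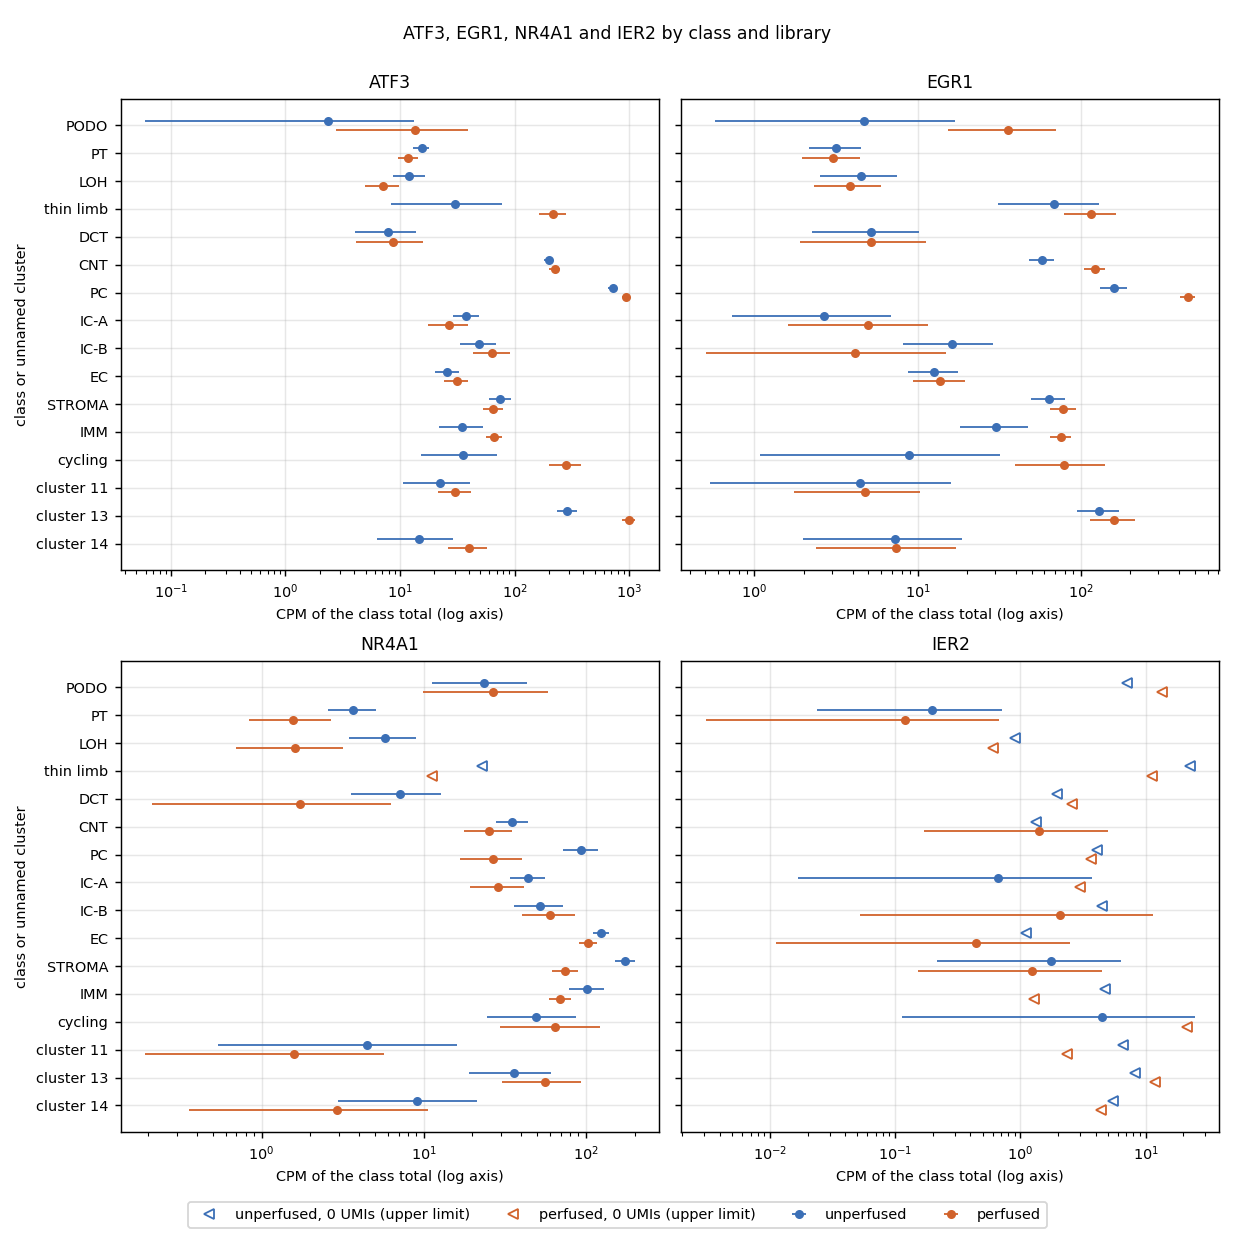
Levels of ATF3, EGR1, NR4A1 and IER2 in CPM of the class total (log axis, its range differing between panels), drawn as for the AP-1 subunits. ATF3 in PC sits at 720 CPM unperfused and 932 CPM perfused, EGR1 in PC at 160 and 454 CPM, and NR4A1 in STROMA at 174 and 74.4 CPM.

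EGR1, a target of serum response factor and of MAP kinase signalling, followed JUN most closely among the other genes: over 24 points (12 classes in both libraries) Pearson's r between log2(CPM + 10) values of JUN and EGR1 was 0.96. The points share libraries and differ in depth, so this r is a description. PC was highest in both libraries, at 160 and 454 CPM, and in the unperfused library its interval overlapped that of cluster 13 (130 CPM). With 118 UMIs unperfused and 371 perfused, the log2 ratio in PC was 1.51 (1.20 to 1.82), and 2.83% of tested genes were called higher there. CNT went from 58.1 CPM (130 UMIs) to 122 CPM (174 UMIs), a ratio of 1.07 (0.73 to 1.41) where 1.41% of tested genes were called higher. The CNT ratio was 0.81 in the nuclei without a marker of another lineage and 0.88 at 1000 UMIs, both short of 2-fold. IMM, which pools nuclei with macrophage and lymphocyte markers, went from 30.3 CPM (19 UMIs) to 75.4 CPM (176 UMIs), a ratio of 1.32 (0.63 to 2.08) beside 1.87% of tested genes called higher.

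In PT, LOH and DCT the EGR1 level was at most 5.22 CPM in either library and no interval excluded 0. EC had 12.6 and 13.8 CPM (0.13, -0.62 to 0.88) and STROMA 63.8 and 78.2 CPM (0.29, -0.14 to 0.73). In PODO EGR1 went from 2 to 8 UMIs, 7 of the 8 in 1 nucleus. The EGR1 ratio in PC was 0.91 in the 48 and 39 nuclei without a marker of another lineage, and that in IMM was 0.50 in the 65 and 166 such nuclei. In PC the share of mitochondrial UMIs was 0.339% unperfused and 0.0952% perfused and the median depth 3757.5 and 5385 UMIs, and in IMM the mitochondrial share was 0.773% and 1.80%; their part in these differences was not tested.

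NR4A1, an orphan receptor that acts without a known natural ligand, had its highest levels outside the tubule and went the other way. The deposited annotation counts pig NR4A1 (ENSSSCG00000031321) as a gene, whereas the RefSeq table lists it as a pseudogene, and which transcripts its UMIs come from was not tested. The unperfused levels were 174 CPM in STROMA, 125 CPM in EC, 102 CPM in IMM and 93.4 CPM in PC, followed by 51.9 CPM in IC-B, 44.1 CPM in IC-A and 35.3 CPM in CNT, with 3.66 CPM in PT and 0 UMIs in thin limb. After perfusion EC was highest, at 103.4 CPM, above STROMA at 74.4 CPM. Of 12 classes with a ratio, 9 were below 0, 6 of them with the whole interval below 0, and no class had an interval above 0.

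NR4A1 was called lower in 4 classes. In STROMA it had 197 UMIs unperfused and 119 perfused, a log2 ratio of -1.23 (-1.57 to -0.89), where 6.54% of tested genes were called lower. Both stromal clusters had less: cluster 12 went from 280 to 97.0 CPM and cluster 6 from 142 to 65.5 CPM. In LOH it went from 5.73 to 1.61 CPM (19 and 8 UMIs, -1.83) beside 6.01% of tested genes called lower, and in PT from 3.66 to 1.57 CPM (37 and 13 UMIs, -1.22) beside 8.61%. The RNA outside nuclei was estimated to add 3.1 CPM unperfused and 1.2 CPM perfused to PT, and with that subtracted the PT ratio was -0.42. In LOH the estimate was 1.77 of 5.73 CPM unperfused and 1.11 of 1.61 CPM perfused. With that subtracted too few UMIs were left in perfused LOH to form a ratio.

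In PC the genes differed in direction. NR4A1 went from 93.4 CPM (69 UMIs in 31 nuclei) to 26.9 CPM (22 UMIs in 13 nuclei), a log2 ratio of -1.80 (-2.56 to -1.09), beside 7.97% of tested genes called lower, while JUN, EGR1 and ATF3 had ratios of 0.89, 1.51 and 0.37. The PC ratio of NR4A1 stayed below 0 but depended on which nuclei were counted: it was -0.76 with doublets kept, -0.77 at an equal depth of 1000 UMIs and -0.30 in the nuclei without a marker of another lineage. IC-B, at 51.9 and 60.1 CPM (0.21, -0.55 to 0.96), and PODO, at 23.6 and 26.9 CPM, had no difference beyond counting error. In EC, cluster 0 went from 130 CPM (116 to 146) to 100.2 CPM (86.5 to 115), and cluster 10 from 83.0 to 122 CPM (28 and 40 UMIs), with intervals that overlapped.

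IER2 was almost undetected, with 13 UMIs among all kept nuclei, at most 2 in a class and library, and no ratio was formed for it. The 0 UMIs in PC allow up to 4.06 CPM unperfused and 3.67 CPM perfused. The level of IER2 by class was not measurable at this depth.

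**Figure D3:**
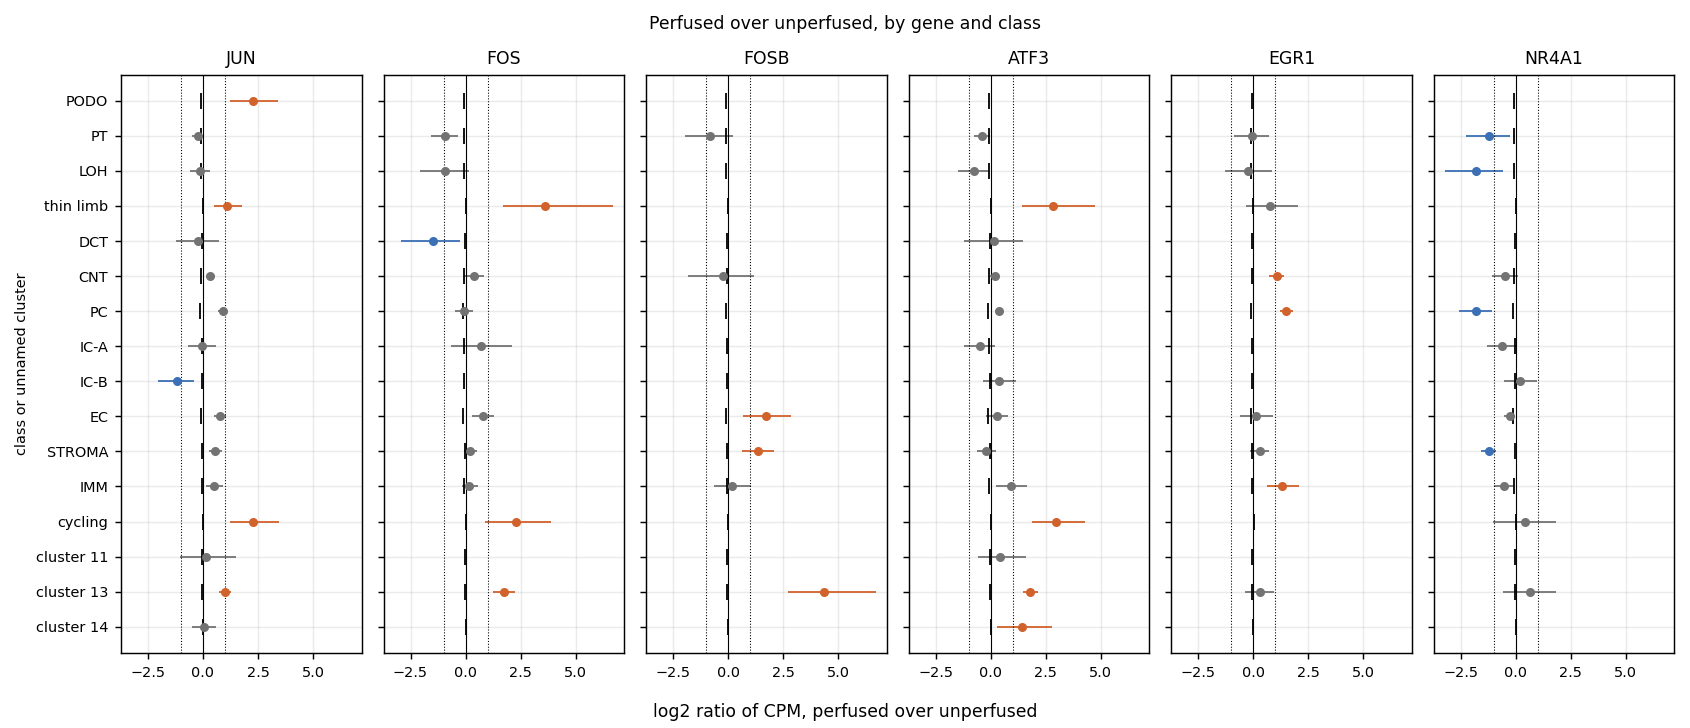
Log2 ratio of perfused over unperfused CPM by class for 6 genes, shown where a gene had at least 20 UMIs in the class; lines are 95% counting intervals, dotted lines mark 2-fold, short black bars the median of all tested genes, and orange and blue points the pairs called higher and lower. EGR1 in PC (1.51) and NR4A1 in PC (-1.80) lie on opposite sides, and the bars of all genes stay near 0.

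Over the whole set, 104 pairs of gene and class were formed, 61 reached 20 UMIs, and 12 of these were called higher and 6 lower. Over all genes and the same classes, 1.96% of tested pairs were called higher and 5.88% lower. The 12 higher pairs were JUN, FOS and ATF3 in thin limb and in cycling nuclei, JUN in PODO, EGR1 in CNT, PC and IMM, and FOSB in EC and STROMA. The 6 lower pairs were NR4A1 in PT, LOH, PC and STROMA, JUN in IC-B and FOS in DCT.

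By class, the median log2 ratio over the genes with a ratio was -0.61 in PT (6 genes, all below 0), -0.77 in LOH (7 genes, 6 below 0) and -0.23 in DCT (5 genes, 4 below 0). It was 0.18 in CNT, 0.37 in PC, 0.27 in EC, 0.22 in STROMA and 0.43 in IMM, with 7 genes each. IC-A had a median of -0.02 and IC-B of -0.15, and the small classes were at 1.11 in thin limb, 1.60 in PODO and 2.63 in cycling nuclei. In thin limb the 1 gene below 0 of 5 was FOSB, with 0 UMIs unperfused and 5 perfused. Its ratio of -0.29 came from setting the 0 to 3 counts and is not a measured decrease. The median over all tested genes lay between -0.11 and 0.01 in these 13 classes. It took only genes with at least 20 UMIs in the class, whereas the medians above also took genes with fewer. The counting interval of each class median was taken from the gene or genes in the middle and leaves out the spread between genes. In PC the ratios of single genes ran from -1.80 (NR4A1) to 1.51 (EGR1). The interval excluded 0 in LOH (-1.47 to -0.08), PC (0.21 to 0.53), thin limb (0.49 to 1.77) and cycling nuclei (1.37 to 4.09). It included 0 in the other classes, PT (-1.36 to 0.10), DCT (-1.24 to 0.73) and CNT (-0.03 to 0.39) among them. In the nuclei without a marker of another lineage the median was -0.048 in LOH and 0.18 in PC. With clusters weighted equally it was -0.22 in LOH. Over genes with at least 20 UMIs alone, PT, LOH, DCT and EC kept their medians. The others were then 0.26 in CNT, 0.63 in PC, 0.26 in STROMA, 0.35 in IMM, -0.26 in IC-A and 0.21 in IC-B. Thin limb was at 1.97, cycling nuclei at 2.28 and PODO, with 1 gene left, at 2.27.

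Within PT, the lower value of FOS came from 1 of its 2 clusters. Cluster 3 went from 17.5 CPM FOS (56 UMIs) to 5.89 CPM (15 UMIs), and cluster 1 had 3.33 CPM in both libraries (23 and 19 UMIs). FOSB was at 6.27 and 3.53 CPM in cluster 3 (20 and 9 UMIs) and at 0.87 and 0.53 CPM in cluster 1 (6 and 3 UMIs), with intervals that overlapped in both clusters. JUN in cluster 3 was at 32.6 and 20.4 CPM, with intervals of 26.6 to 39.5 and 15.2 to 26.8 CPM, and in cluster 1 at 24.2 and 24.3 CPM.

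Cluster 13, which carried no segment name, was higher after perfusion in all 4 of JUN, FOS, FOSB and ATF3. JUN went from 520 to 1050 CPM (1.02), FOS from 130 to 434 CPM (1.74, 1.23 to 2.26), FOSB from 8.29 CPM (3 UMIs) to 171 CPM (43 UMIs, 4.37) and ATF3 from 287 to 991 CPM (1.78), and these 4 were called higher where 2.7% of tested genes were. EGR1, at 130 and 159 CPM (0.29, -0.35 to 0.93), and NR4A1, at 35.9 and 55.7 CPM (0.63, -0.57 to 1.84), were not called. In the perfused library cluster 13 and PC thus both had high JUN and ATF3 and differed in FOS (434 and 142 CPM) and EGR1 (159 and 454 CPM). The cluster held 146 unperfused and 81 perfused nuclei, with median depths of 2305 and 2987 UMIs. In cluster 14 ATF3 was called higher, from 14.6 to 39.7 CPM (8 and 27 UMIs), where 2.61% of tested genes were, and JUN was at 98.5 and 101 CPM. Cluster 11 had ATF3 at 22.2 and 30.1 CPM (10 and 38 UMIs) and JUN at 17.8 and 19.8 CPM, and less of the other genes.

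Levels summed over a class can come from many nuclei or few, so nuclei were also compared after thinning each to 1000 UMIs. In PC, 54.0% of 176 unperfused nuclei (46.3% to 61.5%) and 74.7% of 150 perfused nuclei (66.9% to 81.4%) held a UMI of at least 1 of the 8 genes. At least 3 of the genes were found in 11.9% and 25.3% of PC nuclei. CNT went from 36.1% of 510 nuclei (31.9% to 40.4%) to 50.5% of 222 (43.7% to 57.2%), and cluster 13 from 57.0% of 142 to 86.4% of 81. The perfused library thus had a larger share of nuclei with any of the genes in PC, in CNT and in the unnamed cluster 13. At least 3 of the genes were found in 3.33% and 2.70% of CNT nuclei, with overlapping intervals. The shares were 6.47% and 5.25% in PT and 4.04% and 2.49% in LOH, with overlapping intervals, and in DCT they were 1.83% and 5.52% (a difference of 3.69 percentage points, which was -2.34 at 2000 UMIs). In EC (18.4% and 20.8%) and STROMA (29.2% and 30.3%) the intervals overlapped too. In IMM the shares were 25.4% (19.6% to 31.9%) and 34.6% (30.9% to 38.5%). Nuclei with fewer than 1000 UMIs were left out of these shares. In IMM these were 87 of 292 unperfused and 190 of 820 perfused nuclei. In EC they were 54 of 1323 and 49 of 891, and in STROMA 21 of 363 and 56 of 491.

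**Figure D4:**
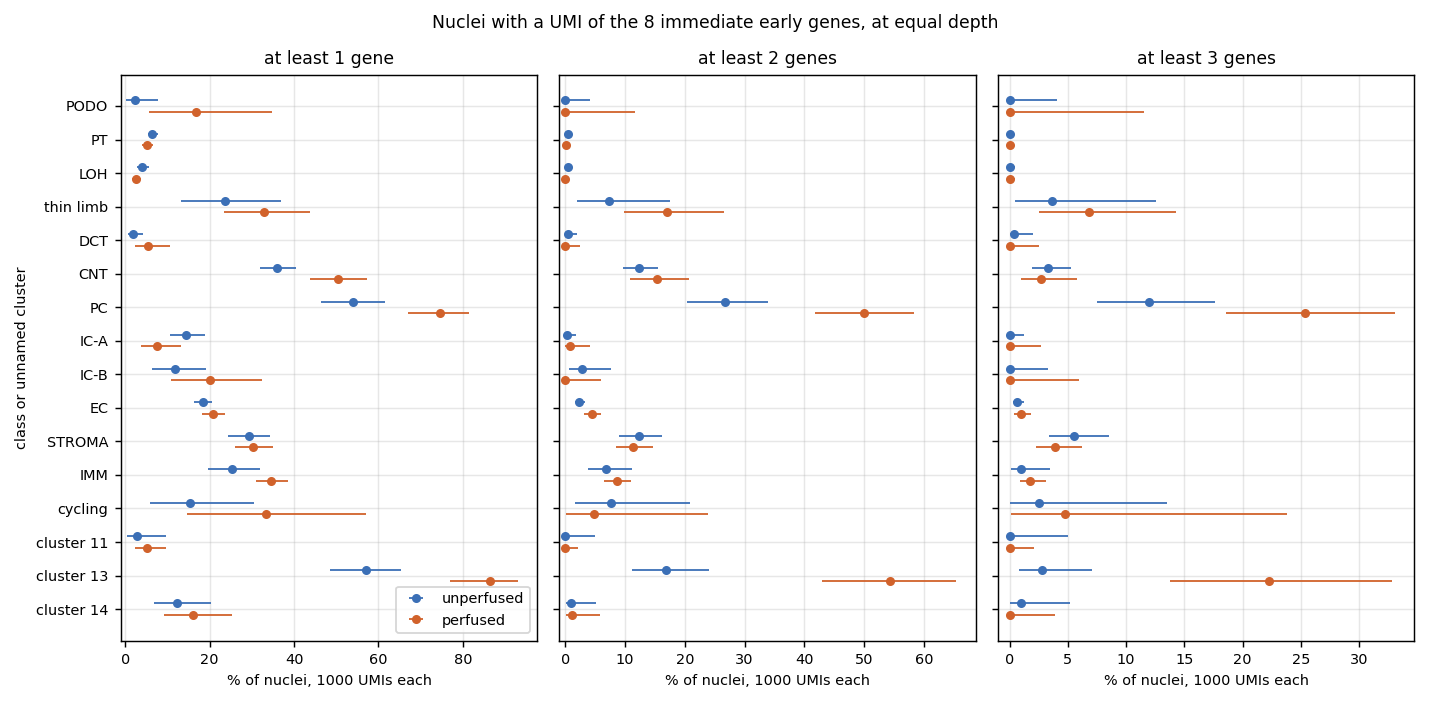
Share of nuclei in each class or unnamed cluster with a UMI of at least 1, 2 or 3 of the 8 genes after thinning each nucleus to 1000 UMIs (in %), unperfused in blue and perfused in orange, with exact binomial 95% intervals. PC (54.0% and 74.7% for at least 1 gene) and cluster 13 (57.0% and 86.4%) lie above the other classes in both libraries, and PT, LOH and DCT lie near 0.

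Without thinning, the shares in PC were 75.0% and 92.0%, in PT 21.2% and 23.3%, in LOH 14.9% and 17.6%, in EC 31.0% and 38.0% and in IMM 32.9% and 52.2%, so that PT and LOH went in the other direction than at equal depth. Median depths were 3757.5 and 5385 UMIs in PC, 5291 and 6619.5 in PT and 4154 and 5753 in LOH. No class is known to lack these genes, so free RNA was judged from the lowest shares, 1.83% in unperfused DCT and 2.49% in perfused LOH at 1000 UMIs, and from tubule transcripts found outside their segment. That estimate came to 4.2 CPM of JUN in unperfused PC and 6.2 CPM in perfused PC, and in PT to 6.6 and 4.9 CPM. It was a larger part of some unperfused levels in small classes. In unperfused cycling nuclei it came to 31.0 of 44.5 CPM of JUN and 24.4 of 35.6 CPM of ATF3. In unperfused thin limb it came to 18.3 of 30.4 CPM of ATF3 and 8.18 of 15.2 CPM of FOS. After perfusion it came to 32.1 of 216 CPM of JUN in cycling nuclei and 17.4 of 217 CPM of ATF3 in thin limb. In DCT it exceeded the measured JUN level (37.5 CPM against 16.3 CPM unperfused), so it is too high there.

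By gene, JUN was found in 30.1% and 51.3% of PC nuclei at 1000 UMIs, EGR1 in 11.4% and 32.0%, ATF3 in 33.5% and 50%, FOS in 12.5% and 13.3% and NR4A1 in 7.39% and 3.33%. The median PC nucleus, at its own depth, had 1 JUN UMI unperfused and 4 perfused, and 0 and 2 UMIs of EGR1. In STROMA, JUN was found in 10.8% and 13.1% of nuclei, FOS in 12.9% and 13.3% and NR4A1 in 14.04% and 5.52%. Of the 8 genes, NR4A1 had the largest difference in share between the libraries in stromal nuclei.

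Nuclei with JUN more often held another of the genes in some classes, and in others they differed little from nuclei without it. In perfused PC, ATF3 was present in 64.9% of the 77 nuclei with JUN and in 34.2% of those without, and EGR1 in 40.3% and 23.3%. In unperfused PC the values were 45.3% and 28.5% for ATF3 and 20.8% and 7.32% for EGR1. In unperfused STROMA FOS was found in 40.5% of the 37 nuclei with JUN and 9.51% of those without (28.1% and 11.1% after perfusion). In perfused thin limb FOS was found in 32% of the 25 nuclei with JUN and 1.59% of those without. In cluster 13, where both genes were frequent, FOS was found in 29.8% of perfused nuclei with JUN and 29.4% of those without, so presence of one said little about the other. In CNT, ATF3 was found in 22.7% of perfused nuclei with JUN and 18.6% of those without (28.7% and 12.4% unperfused). In perfused IMM it was found in 3.66% and 4.38%. In EC, FOS was found in 16.0% of perfused nuclei with JUN and 2.999% of those without. Deeper nuclei hold more of any gene, so these shares were taken at equal depth. Whether mixed subtypes or nuclei of unlike quality within a class add to joint presence was not tested.

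**Figure D5:**
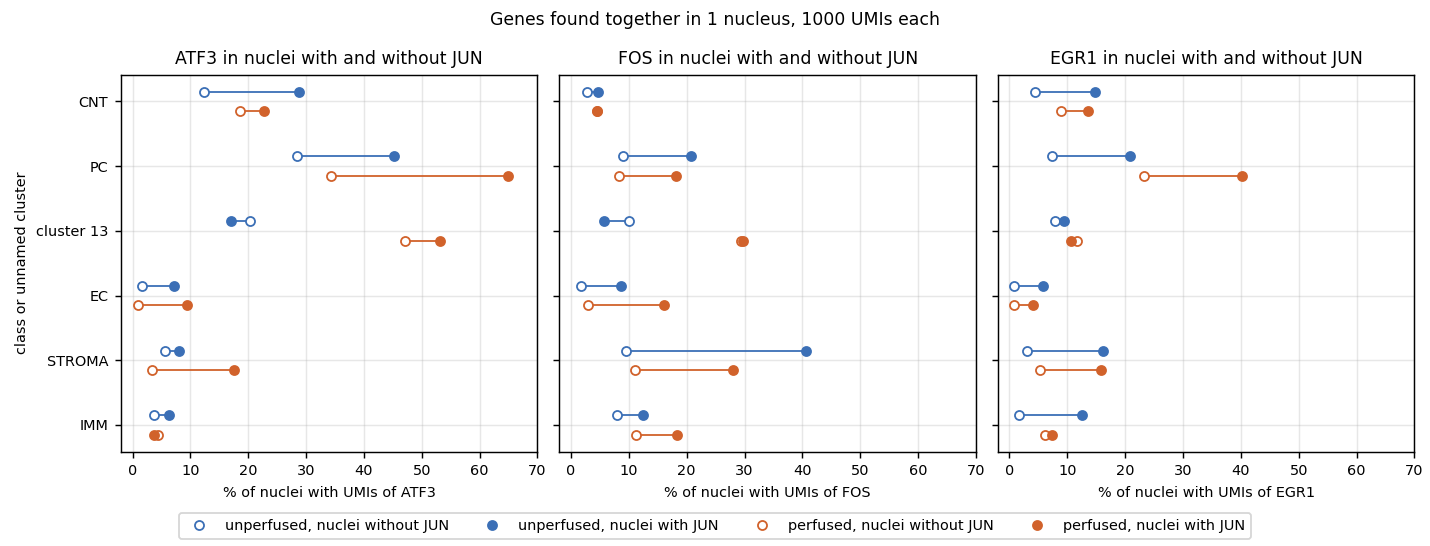
Share of nuclei (in %) with UMIs of ATF3, FOS or EGR1 among nuclei with JUN (filled) and without JUN (open) in 6 classes or clusters, each nucleus thinned to 1000 UMIs, unperfused in blue and perfused in orange; no error bars are drawn, and the smallest set of nuclei with JUN is 16 (unperfused IMM). ATF3 in perfused PC sits at 64.9% with JUN and 34.2% without, and FOS in perfused cluster 13 at 29.8% and 29.4%.

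Relatives of these genes were read from 4 lists over the 13 classes. Other rapid response genes (39, of which 38 are in the files) gave 239 pairs of gene and class with at least 20 UMIs, 12 called higher and 18 lower. AP-1 and ATF partners gave 84 pairs with 1 higher and 2 lower, upstream factors and kinases 244 pairs with 1 higher and 4 lower, and negative feedback genes 132 pairs with 5 higher and 5 lower. These counts stand beside the 1.96% of all tested pairs called higher and the 5.88% called lower. MAFF is in both the rapid response list and the partner list, so any pair of it counts in both. Median log2 ratios of the other rapid response genes were -0.24 in PT, -0.14 in LOH, 0.09 in CNT, -0.18 in PC, -0.41 in EC, 0.14 in STROMA and -0.01 in IMM.

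The NR4A1 relatives were lower with it in part. NR4A2 was called lower in LOH, from 12.1 to 4.64 CPM (-1.38), and had ratios of -0.71 in PT, -0.81 in EC, -0.84 in IMM and 0.04 in STROMA. NR4A3 was called lower in STROMA, from 248 to 65.0 CPM (280 and 104 UMIs, -1.93, -2.27 to -1.60), and higher in EC, at a log2 ratio of 2.21 (0.87 to 3.79) on 6 unperfused and 23 perfused UMIs. In STROMA NR4A2 had a log2 ratio of 0.04 (-0.55 to 0.64), unlike NR4A1 and NR4A3.

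Further genes of the lists passed the rule in the large classes. In PT CCN2, a secreted matricellular factor, and ID1, an inhibitor of basic helix-loop-helix factors, were called lower (-1.11 and -1.37). In LOH the kinase SIK1 (-1.05), the kinase MAPK7 (-1.37) and DUSP1 (-1.05), a phosphatase of MAP kinases, were called lower, and the small MAF protein MAFG was called higher (4.53 to 11.7 CPM, 1.37) where 0.549% of tested genes were. EC had lower KLF10 (-1.01), a zinc finger factor, and PPP1R15A (-1.002), a regulator of the integrated stress response, beside 4.87% of tested genes called lower. In STROMA PTGS2, the inducible cyclooxygenase, was called higher (15.1 to 41.9 CPM, 1.48) with SPRY4 (1.35), an inhibitor of receptor tyrosine kinase signalling, and DUSP4 was called lower (-1.38). In IMM TRIB1 (1.35) and the phosphatase DUSP5 (1.17) were called higher. DUSP1, which is induced along with FOS and JUN in many cells, was at -1.03 in PC and -0.34 in CNT, where JUN and EGR1 were higher.

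Among the genes whose levels most closely followed the sum of the 8 genes over 12 classes and both libraries (24 points, 10467 genes compared) were UBB (r = 0.94), a polyubiquitin gene, H2AC6 (r = 0.93), a histone gene, DNAJB1 (r = 0.91), a heat shock co-chaperone, and HSPA8 (r = 0.89), a constitutive heat shock protein. Among the 8 genes themselves, FOS had r of 0.82 with JUN and 0.84 with EGR1 over the same points, ATF3 had 0.87 with JUN, and NR4A1 had 0.32 with JUN and 0.48 with FOS. The points share 2 libraries, so these values describe the order of classes and are not tests.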

How the data were processed

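The authors processed the reads of both libraries with Cell Ranger 5.0.1 on a pig reference built from Ensembl release 103, with intronic reads included. What they deposited are raw UMI counts, whole numbers for each barcode and gene. These counts precede their filters on nuclei, and SoupX, which they used against free RNA, was not run here because empty droplets were not used here. The genome build is not given in the sources used here beyond that release, and no coordinates or sequences are printed.

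Nuclei had to show 500 to 6000 genes and no more than 7% of UMIs from mitochondrial genes. Scrublet (scanpy 1.11.5) marked 641 unperfused and 489 perfused doublets, which were left out. Libraries were integrated in Seurat 5.3.0 (R 4.3.3) with 2000 variable genes, from which 96 genes of the lists used here were left out, and clustered on 15 components at a resolution of 0.5. Clusters were named from marker lists, with at least 3 markers raised. UMIs of a class and library were summed and divided by their total (CPM). Ratios have exact conditional binomial intervals, levels exact Poisson intervals and shares exact binomial (Clopper-Pearson) intervals. All cover counting error only. The ratio intervals were tested on simulated Poisson counts, which lack the gathering of UMIs in single nuclei seen here. That test cannot show how well the intervals cover such counts. A count of 0 was set to 3 counts in a ratio, and no ratio was formed where both counts were at or below 3. Classes differed in depth, with totals from 131508 UMIs (unperfused thin limb) to 10101579 UMIs (unperfused PT), so small classes are less precise. The estimate of free RNA rests on UMIs of UMOD, SLC12A1, CUBN and LRP2 outside their segments. It takes free RNA to hold each gene at its level over all kept nuclei of the library. That was not tested, so the estimate is not a strict upper value.

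The members, lists and rules were chosen with earlier results of these data known. Named were the 8 genes, list genes that passed the 2-fold rule with at least 50 UMIs in PT, LOH, EC, STROMA or IMM, and the 5 genes most like the sum of the 8 (log2(CPM + 10), at least 500 UMIs in all, classes with at least 30 nuclei per library). NR4A2, NR4A3 and DUSP1 in other classes were named after their values were seen. Alternatives were other resolutions, doublets kept, no mitochondrial limit, the genes allowed among the variable genes, no integration, edgeR 4.0.16 TMM and DESeq2 1.42.0 size factors, free RNA subtracted, nuclei with a marker of another lineage left out, thinning, at least 10 UMIs per library, equal weight of clusters and the richest nucleus left out. Some genes of the marker lists and of the likeness ranking are not reported here.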

Additional observations from a re-analysis of the deposited data

Results flagged for a closer look

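The ratios of JUN and FOS passed the 2-fold rule in opposite directions in different classes, which is why they are listed here. JUN had log2 ratios of 2.27 in PODO, 1.11 in thin limb and 2.28 in cycling nuclei against -1.18 in IC-B. FOS had log2 ratios of 3.62 in thin limb and 2.28 in cycling nuclei against -1.48 in DCT. With 1 library per condition the difference between classes was not tested. The classes involved were small, from 21 to 148 perfused nuclei. UMIs lay in part in single nuclei, as given above, for JUN in PODO and cycling nuclei. This also held for FOS in thin limb, cycling and unperfused DCT nuclei. Of the perfused JUN UMIs, 9 of 18 in IC-B and 16 of 118 in thin limb lay in 1 nucleus.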

How the results depend on the processing

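No paired analysis was possible because each condition has 1 library. Of the 12 higher and 6 lower pairs of the named classes, none changed its sign in an alternative that formed its ratio. Not every alternative did: FOS and ATF3 in thin limb had a ratio in 10 settings, against 15 for FOSB in EC, the main setting included. The calls in the unnamed clusters and those of the list genes were not run under the alternatives. The counts of 12 higher and 6 lower pairs became 7 higher at a resolution of 0.3, where thin limb and IMM were not named, and 7 higher without integration, where IMM and cycling nuclei were not named; 2 higher and 3 lower in nuclei without a marker of another lineage; and 2 higher and 2 lower at 1000 UMIs, where fewer UMIs were left. In the nuclei without a marker of another lineage no ratio was formed for cycling nuclei or for PODO, with 14 and 3 nuclei left. The pairs of these classes could not be called there, so their absence is not a lost call. CNT kept 131 and 45 nuclei. Of the pairs called at first, 1 higher and 2 lower remained without nuclei of another lineage's markers, and 1 higher and 1 lower at 1000 UMIs. The median ratio in PC (0.37) was 0.61 with doublets kept, 0.64 with free RNA subtracted, 0.18 without such nuclei, 0.70 at 1000 UMIs, 0.63 with at least 10 UMIs per library and 0.63 without the richest nucleus. That in LOH (-0.77) was -0.048 and that in STROMA (0.22) was -0.95 without such nuclei; STROMA was 0.52 with its clusters weighted equally, and IC-A (-0.02) was -0.96 at 1000 UMIs. The difference in the share of nuclei with any of the genes, in percentage points, was 2.02 in PT, 2.76 in LOH, 7.06 in EC and 19.3 in IMM without thinning (-1.21, -1.55, 2.42 and 9.24 at 1000 UMIs), and at 2000 UMIs 22.4 in IMM and -2.34 in DCT (3.69 at 1000 UMIs). At 2000 UMIs IMM kept 95 of 292 unperfused and 355 of 820 perfused nuclei. The cause of these moves was not tested beyond what is stated. Depth limits JUNB, FOSB and IER2 in most tubule classes, and thin limb could not be formed with doublets kept.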

Other observations

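The summed levels over all kept nuclei, which mix changes within classes with changes in how many nuclei each class gave, were 75.5 CPM unperfused and 108 CPM perfused for JUN, 26.6 and 42.2 CPM for FOS, 3.86 and 10.2 CPM for FOSB, 19.1 and 38.2 CPM for EGR1, 59.5 and 74.8 CPM for ATF3, and 35.7 and 25.3 CPM for NR4A1. IMM gave 4.57% of unperfused and 15.1% of perfused nuclei, and CNT 8.08% and 4.15%. PODO gave 1.39% and 0.553% and PC 2.75% and 2.77%. A like share does not show that the PC nuclei were alike, and their depth and mitochondrial share differed between the libraries, as given above.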
